A study of Mus musculus with 15 samples.

Results

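Interferon response genes were described across group 3 and group 2 innate lymphoid cells (ILC3 and ILC2) from mouse small intestine. The set held 33 of the 22797 genes in the count files: genes that interferons induce, the factors that carry the interferon signal, and sensors of viral nucleic acids. They were chosen by name from what they are known to do, but at a point when earlier results of these data were known. All 33 were found by their Entrez identifiers, and all 33 passed the filter on low counts and were tested.

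The study sequenced polyA RNA of both cell types at 4 zeitgeber times (ZT4, ZT10, ZT16 and ZT23, in hours on the clock set by the light cycle). ILC3 had 8 libraries, with 2 at each time. ILC2 had 7 libraries, with 2 at each time except ZT16, which had 1 and therefore no replicate. Total counts per library ran from 5903163 to 24794403 in ILC3 and from 4016298 to 18538315 in ILC2. All mice were female and no treatment was named; the sources used here give no strain, genotype, age or housing. For each time the intestinal cells of 6 mice were pooled before staining and sorting, and the sources used here do not name the antibodies. The design text calls the libraries of a group biological replicates, but does not say whether each had its own pool of mice, so p-values measure the spread between libraries. Every ILC3 library was in batch 2 and every ILC2 library in batch 1, so cell type and batch cannot be told apart, and no value within a batch could be had for the comparison of cell types.

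Interferons are secreted proteins that cells make when sensors detect foreign or misplaced nucleic acid. Type I and type III interferons act through receptors whose kinases activate STAT2, which joins IRF9 in a complex that binds interferon-stimulated response elements in the promoters of antiviral genes. In the gut, innate lymphoid cells of group 3 are known for IL-22 and IL-17 and those of group 2 for IL-5 and IL-13, and interferons are known to restrain ILC2.

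Promoters were searched on both strands for the core of the response element that the complex of STAT2 and IRF9 binds, GAAA followed by any 2 bases and another GAAA, from 250 bases before to 50 bases after each start in a RefSeq promoter table (GRCm38.p6). The table held a promoter for 24 of the 33 genes. The motif was present in 14 of these 24 genes (58.3%), against 3.99% of all 27025 genes with a promoter in the table. Among genes with a promoter it was in 4 of 6 that were higher in ILC3, 7 of 12 that were lower in ILC3 and 3 of 6 that were not called, so genes on both sides held it. A match describes these letters in this window and is not a binding site. The promoters of 3 genes are printed 5′ to 3′ on the strand of the gene, with the match of this motif in capitals: Oas3 (chr5:120777610-120777909, minus strand), Bst2 (chr8:71537423-71537722, minus strand) and Stat2 (chr10:128270248-128270547, plus strand). Among genes called between the cell types that hold the motif, Oas3 and Bst2 had the largest absolute fold changes and Stat2 the smallest. The Bst2 promoter has a pair of overlapping matches, and the match of Stat2 is on the opposite strand, where it reads TTTC, any 2 bases and TTTC.
Oas3: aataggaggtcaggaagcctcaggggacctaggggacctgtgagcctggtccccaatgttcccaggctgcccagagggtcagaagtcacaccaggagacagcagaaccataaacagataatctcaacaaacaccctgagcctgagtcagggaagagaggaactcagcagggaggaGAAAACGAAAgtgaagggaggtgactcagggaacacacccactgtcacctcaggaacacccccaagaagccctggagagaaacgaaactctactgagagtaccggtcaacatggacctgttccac
Bst2: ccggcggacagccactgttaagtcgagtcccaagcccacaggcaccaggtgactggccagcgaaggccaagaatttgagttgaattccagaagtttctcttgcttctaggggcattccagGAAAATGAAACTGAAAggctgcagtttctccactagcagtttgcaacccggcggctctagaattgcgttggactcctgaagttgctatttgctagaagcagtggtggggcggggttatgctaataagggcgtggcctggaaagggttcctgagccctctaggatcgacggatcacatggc
Stat2: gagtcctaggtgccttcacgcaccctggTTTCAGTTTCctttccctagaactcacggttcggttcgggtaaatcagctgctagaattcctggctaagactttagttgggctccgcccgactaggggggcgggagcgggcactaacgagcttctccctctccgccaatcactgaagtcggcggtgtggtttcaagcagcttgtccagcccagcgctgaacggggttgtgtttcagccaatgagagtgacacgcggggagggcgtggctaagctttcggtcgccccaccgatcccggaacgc
Counted from the start in that table, which for Oas3 lies within its gene record and not at its end, the match began 75 bases before the start of Oas3, 130 and 124 bases before that of Bst2, and 222 bases before that of Stat2. All of these genes were lower in ILC3.

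Levels are given as CPM (read counts as a share of the library total, scaled by TMM factors). Means are ± SD over the 8 ILC3 or 7 ILC2 libraries. A log2 fold change is the fitted mean of the 4 ILC3 groups minus that of the 4 ILC2 groups ± its standard error (SE). In every fit without the ILC2 ZT16 library, ZT16 leaves this comparison in both cell types, so it covers ZT4, ZT10 and ZT23 only. A gene was called when the Benjamini-Hochberg adjusted p of edgeR's quasi-likelihood test, over all 15339 genes tested, was under 0.05. Over all times 20 of the 33 genes were called, 6 higher and 14 lower in ILC3, and 13 were not called. Of all genes tested 27.1% were called, 15.1% higher and 12% lower. Scaling by library size alone moved the split of all called genes to 2981 higher and 1315 lower, against 2318 and 1839. The median log2 fold change of the 33 genes was -0.18, beside 0.11 over all genes tested. The libraries of the cell types did not overlap for 13 of the 33 genes, 4 with every ILC3 library above and 9 with every ILC3 library below, beside 12.1% of all genes tested (6.51% above and 5.58% below). At each of the 4 times taken alone, all 20 called genes had the direction that they had over all times. The comparison over all times is the mean of these 4 differences, so this agreement was partly built in. For Rsad2 at ZT16 the difference was slight, at 12.6 CPM in ILC3 and 12.8 CPM in the 1 ILC2 library. In bulk RNA, fewer cells of a type and less RNA per cell cannot be told apart.

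**Figure D1:**
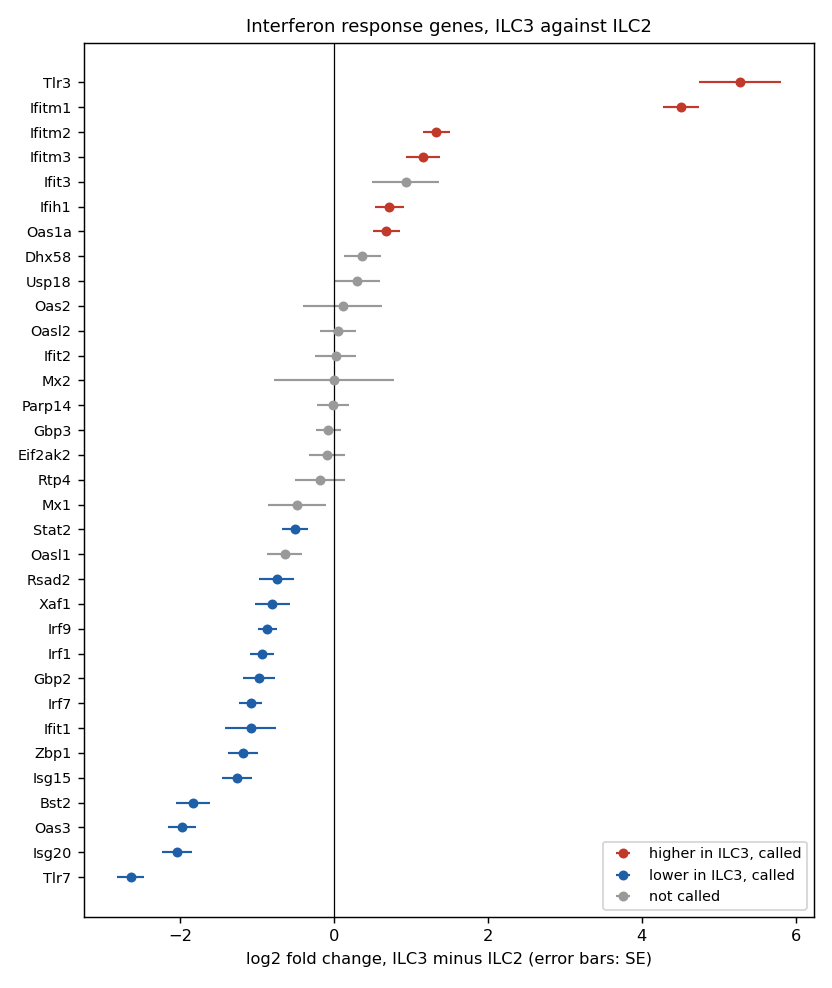
Fitted log2 fold change of ILC3 minus ILC2 for each of the 33 genes (x axis, error bars SE), from the highest at the top to the lowest; red and blue points are genes called higher and lower in ILC3, grey points are not called. Tlr3 and Ifitm1 stand above 4, and Tlr7 and Isg20 below -2, while the 13 grey points lie between -0.64 and 0.93; the Tlr3 value rests in part on an ILC2 library with 0 counts.

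The 4 factors that carry the interferon signal were all lower in ILC3. Irf7, the factor that amplifies type I interferon production, had 36.5, 52.4 and 75.0 CPM as lowest, median and highest in ILC3, against 81.4, 119 and 157 CPM in ILC2. Its libraries did not overlap, and the log2 fold change was -1.08 ± 0.15 (edgeR, adjusted p = 0.000176). Irf9, the DNA-binding subunit of the complex with STAT2, averaged 43.5 ± 8.48 CPM in ILC3 and 79.7 ± 3.33 CPM in ILC2, with a log2 fold change of -0.87 ± 0.12 (edgeR, adjusted p = 0.000245). Irf1, a factor induced by type II interferon, averaged 147 ± 29.4 CPM in ILC3 and 276 ± 48.4 CPM in ILC2 (log2 fold change -0.94 ± 0.16; edgeR, adjusted p = 0.000905). Neither Irf9 nor Irf1 had overlapping libraries. Stat2 averaged 27.8 ± 8.06 CPM in ILC3 and 37.8 ± 6.91 CPM in ILC2, its libraries overlapped, and its log2 fold change of -0.51 ± 0.17 lay close to the threshold (edgeR, adjusted p = 0.041). The Stat2 call was lost when any of 9 single libraries was left out (ZT4 replicates 1 and 2, ZT10 replicate 2, ZT16 replicate 1 and ZT23 replicate 2 of ILC3; ZT4 replicate 1, ZT10 replicate 1, ZT16 and ZT23 replicate 1 of ILC2), with log2 fold changes from -0.54 to -0.44.

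The 6 sensors divided, with Tlr3 and Ifih1 higher in ILC3, Tlr7 and Zbp1 lower, and Dhx58 and Eif2ak2 not called. Tlr3, the endosomal receptor for double-stranded RNA, had 6.89, 22.8 and 31.1 CPM as lowest, median and highest in ILC3, against 0, 1.24 and 4.31 CPM in ILC2. Every ILC3 library stood above every ILC2 library, and the ratio of the mean levels was 11.4 in favour of ILC3. ILC2 held 169 Tlr3 counts in all and 0 at ZT16. The fitted log2 fold change, which depends on how a group at 0 is handled, was 5.28 ± 0.53 with that library (edgeR, adjusted p = 1.81e-05). Without that library, the comparison leaves out ZT16 in both cell types, and the value was 3.11 ± 0.40 (edgeR, adjusted p = 0.000152). Tlr7, the endosomal receptor for single-stranded RNA, went the other way, with 7.4, 9.11 and 17.6 CPM in ILC3, against 40.1, 61.0 and 104 CPM in ILC2. No library overlapped, and the log2 fold change of -2.64 ± 0.17 was the lowest of the 33 genes (edgeR, adjusted p = 1.09e-06). Thus both of the toll-like receptors for viral RNA in the set differed, in opposite directions.

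Zbp1, the sensor of left-handed nucleic acid that can start necroptosis, had 21.5, 33.5 and 45.9 CPM as lowest, median and highest in ILC3, against 61.2, 67.6 and 94.0 CPM in ILC2. Its libraries did not overlap (log2 fold change -1.18 ± 0.19; edgeR, adjusted p = 0.000703). Ifih1, which encodes the cytosolic sensor MDA5 of long double-stranded RNA, averaged 37.4 ± 7.95 CPM in ILC3 and 22.8 ± 5.49 CPM in ILC2, and its libraries overlapped. Its log2 fold change was 0.72 ± 0.19 (edgeR, adjusted p = 0.015). The call was lost without the ILC2 ZT16 library, and so without ZT16 in either cell type (0.60, edgeR, adjusted p = 0.051). It was also lost without replicate 2 of ILC3 ZT16 (0.62). Dhx58, the regulator LGP2 of the same family, averaged 19.6 ± 4.55 CPM in ILC3 and 16.9 ± 7.41 CPM in ILC2, and Eif2ak2, the kinase PKR that stops translation on double-stranded RNA, averaged 15.03 ± 4.08 CPM in ILC3 and 15.9 ± 3.98 CPM in ILC2. For both, the difference was within the spread of the libraries (edgeR, adjusted p = 0.291 for Dhx58 and 0.837 for Eif2ak2).

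The oligoadenylate synthetase family had 1 gene higher in ILC3, 1 lower and 3 not called. It is named for enzymes that make the messenger molecule for RNase L from ATP on double-stranded RNA, which not every member does. Oas3 had 8.54, 13.6 and 14.5 CPM as lowest, median and highest in ILC3, against 34.8, 43.4 and 88.4 CPM in ILC2. The libraries did not overlap, and the log2 fold change was -1.97 ± 0.19 (edgeR, adjusted p = 1.12e-05). Oas1a, whose gene lies 118.572 kb from Oas3 on chromosome 5, averaged 40.4 ± 5.06 CPM in ILC3 and 25.3 ± 5.64 CPM in ILC2 and was higher in ILC3 (log2 fold change 0.68 ± 0.17; edgeR, adjusted p = 0.0105). Its libraries overlapped, with the highest ILC2 values of 32.98 and 33.3 CPM above the lowest ILC3 value of 32.1 CPM. Oas2, 3.212 kb from Oas3, was low in both cell types, at 2.10 ± 0.650 CPM in ILC3 and 2.93 ± 2.23 CPM in ILC2, and was not called (edgeR, adjusted p = 0.928). Oasl2 was also not called (16.5 ± 3.38 CPM in ILC3 and 16.3 ± 6.32 CPM in ILC2). Oasl1 averaged 7.83 ± 2.57 CPM in ILC3 and 12.7 ± 5.57 CPM in ILC2 and just missed the threshold (log2 fold change -0.64 ± 0.23; edgeR, adjusted p = 0.0584). Oas1a has near-identical copies beside it in the mouse genome, and the sources used here do not say how reads that match several of them were counted.

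Among the 18 antiviral effectors, 3 were higher in ILC3, 7 were lower and 8 were not called, and all 3 that were higher belonged to the Ifitm family. These small membrane proteins block the fusion of viruses with the cell. Ifitm1 had 42.7, 52.3 and 88.1 CPM as lowest, median and highest in ILC3, against 0.439, 2.84 and 7.23 CPM in ILC2. No ILC2 library came near the ILC3 range, and the log2 fold change was 4.51 ± 0.23 (edgeR, adjusted p = 1.97e-07), a 22.8-fold difference of fitted values. Ifitm2 had 73.9, 87.1 and 179 CPM in ILC3, against 27.2, 36.4 and 62.4 CPM in ILC2 (log2 fold change 1.33 ± 0.18; edgeR, adjusted p = 0.000145). Ifitm3 had 108, 127 and 229 CPM in ILC3, against 28.0, 57.0 and 99.1 CPM in ILC2 (log2 fold change 1.16 ± 0.22; edgeR, adjusted p = 0.00208). The libraries of the cell types did not overlap for any of these 3 genes, which lie within 1 cluster on chromosome 7, with Ifitm1 7.743 kb from Ifitm2 and 39.763 kb from Ifitm3. Irf7, lower in ILC3, is the next gene of the set on that chromosome, 252.439 kb from Ifitm3.

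The effectors that were lower in ILC3 were led by Isg20 and Bst2. Isg20, an exonuclease of single-stranded RNA, had 9.65, 14.6 and 18.1 CPM as lowest, median and highest in ILC3, against 39.6, 58.6 and 78.1 CPM in ILC2 (log2 fold change -2.04 ± 0.19; edgeR, adjusted p = 1.23e-05). Bst2, the tetherin that holds budding virus at the cell surface, had 98.2, 127 and 169 CPM in ILC3, against 299, 383 and 859 CPM in ILC2 (log2 fold change -1.84 ± 0.22; edgeR, adjusted p = 6.52e-05). Neither gene had overlapping libraries. Isg15, the ubiquitin-like modifier, had 23.9, 36.7 and 61.8 CPM in ILC3, against 54.3, 92.0 and 186 CPM in ILC2 (log2 fold change -1.26 ± 0.20; edgeR, adjusted p = 0.000461). Its ranges overlapped through the highest ILC3 library, replicate 1 of ZT4, and the lowest ILC2 library, at ZT16. Gbp2, a GTPase that acts on the vacuoles of intracellular pathogens, averaged 92.5 ± 23.3 CPM in ILC3 and 183 ± 43.4 CPM in ILC2 with no overlap (log2 fold change -0.97 ± 0.20; edgeR, adjusted p = 0.00375), while its neighbour Gbp3, 47.45 kb away on chromosome 3, averaged 32.3 ± 7.93 CPM in ILC3 and 34.3 ± 7.46 CPM in ILC2 and was not called.

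Ifit1, Rsad2 and Xaf1 were lower in ILC3 with adjusted p closer to the threshold. Ifit1, which binds viral RNA that lacks host cap methylation, had 2.13, 4.16 and 5.95 CPM as lowest, median and highest in ILC3, against 5.07, 7.96 and 25.3 CPM in ILC2, with overlap (log2 fold change -1.09 ± 0.34; edgeR, adjusted p = 0.0309). Rsad2, the enzyme viperin, averaged 13.6 ± 2.39 CPM in ILC3 and 26.0 ± 10.9 CPM in ILC2 (log2 fold change -0.75 ± 0.23; edgeR, adjusted p = 0.0312). Xaf1, a pro-apoptotic gene that interferon induces, averaged 7.28 ± 1.65 CPM in ILC3 and 12.8 ± 2.48 CPM in ILC2 (log2 fold change -0.80 ± 0.23; edgeR, adjusted p = 0.0209). Each of these calls rested on single libraries. All 3 were lost without replicate 1 of ILC3 ZT16 and without replicate 1 of ILC2 ZT10. Those of Ifit1 and Rsad2 were also lost without replicate 2 of ILC3 ZT10, ILC3 ZT23 or ILC2 ZT23, that of Ifit1 without replicate 2 of ILC3 ZT4, that of Rsad2 without replicate 1 of ILC3 ZT4 or ILC2 ZT4, and that of Xaf1 without replicate 1 of ILC3 ZT10. Over the fits without 1 library, log2 fold changes ran from -1.35 to -0.88 for Ifit1, -0.99 to -0.53 for Rsad2 and -0.98 to -0.69 for Xaf1. The same 3 calls and that of Stat2 were lost with library size as the only scaling (edgeR, adjusted p = 0.0638 for Ifit1, 0.0969 for Rsad2, 0.0770 for Xaf1 and 0.165 for Stat2).

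The other 7 effectors that were not called, Ifit2, Ifit3, Mx1, Mx2, Usp18, Rtp4 and Parp14, beside Gbp3, had overlapping libraries. Ifit3 had the largest difference of them, at 6.10 ± 2.31 CPM in ILC3 and 4.38 ± 3.65 CPM in ILC2 (log2 fold change 0.93 ± 0.43; edgeR, adjusted p = 0.136), on the opposite side of 0 from Ifit1, which lies 51.907 kb away on chromosome 19. Ifit3 has a near-identical copy in the mouse, so its counts are uncertain. The dynamin-like GTPases were low: Mx1 averaged 3.10 ± 1.44 CPM in ILC3 and 4.11 ± 1.43 CPM in ILC2, and Mx2 averaged 1.33 ± 0.492 CPM in ILC3 and 1.32 ± 0.971 CPM in ILC2. Usp18, the protease that removes ISG15 and restrains the receptor, averaged 10.2 ± 4.34 CPM in ILC3 and 8.28 ± 2.20 CPM in ILC2 (edgeR, adjusted p = 0.504). Parp14, an ADP-ribosyltransferase, averaged 65.3 ± 22.6 CPM in ILC3 and 64.7 ± 18.3 CPM in ILC2, with a log2 fold change of -0.01 ± 0.20. Rtp4, Ifit2 and Oasl2 likewise had log2 fold changes between -0.18 and 0.05.

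**Figure D2:**
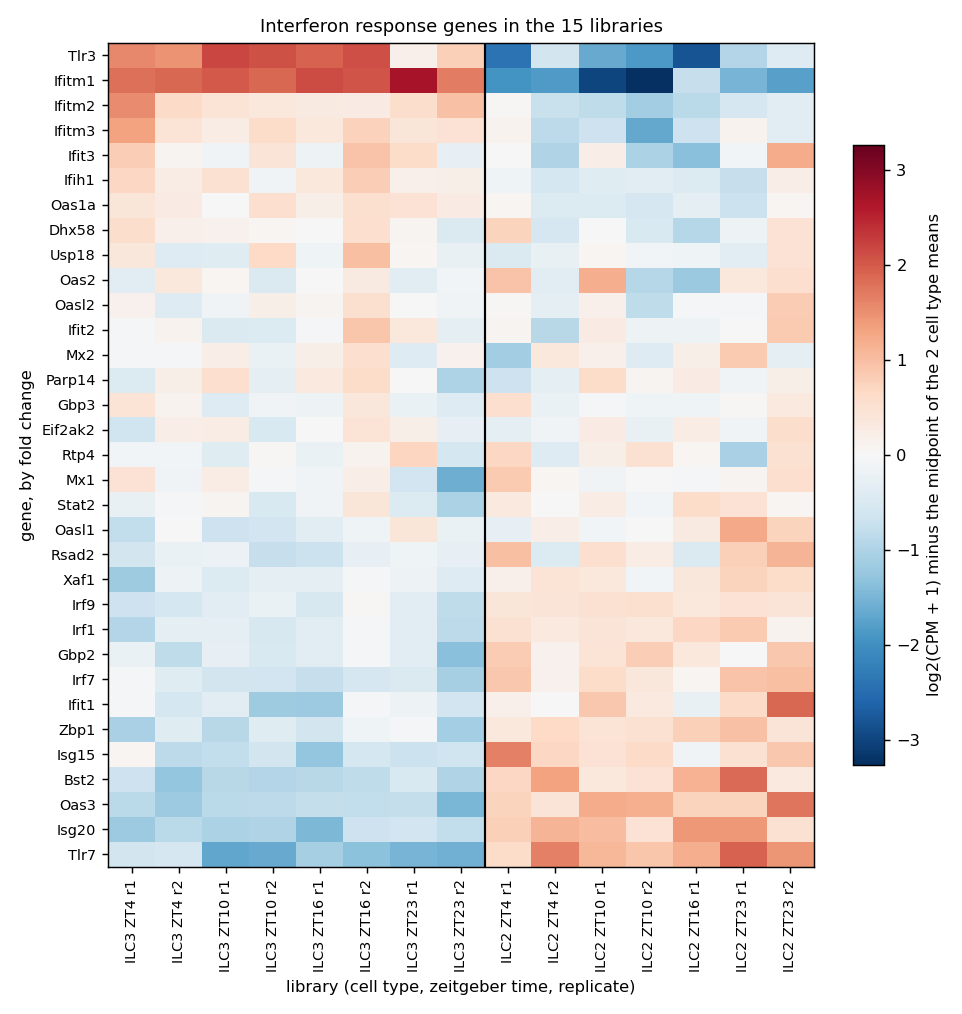
Each of the 33 genes (rows, in the order of fold change) in each of the 15 libraries (columns, ILC3 left of the line and ILC2 right of it); colour is log2(CPM + 1) minus the midpoint of the 2 cell type means, red above and blue below, over the full range of the values. The rows at the top are red in ILC3 and the rows at the bottom are red in ILC2, and single columns such as ILC3 ZT16 replicate 2 and ILC2 ZT23 replicate 2 are red across many middle rows.

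Because a longer gene collects more reads, levels of different genes were set side by side per length, as RPKM (CPM divided by the gene length in kilobases). In ILC3 the 5 highest were Ifitm3 at 216 ± 59.6, Bst2 at 170 ± 27.2, Ifitm2 at 158 ± 56.7, Ifitm1 at 66.6 ± 16.7 and Isg15 at 50.04 ± 14.4 RPKM. In ILC2 they were Bst2 at 612 ± 267, Isg15 at 133 ± 54.9, Ifitm3 at 101 ± 40.0, Irf1 at 82.2 ± 14.4 and Gbp2 at 74.5 ± 17.7 RPKM. Some neighbours in these orders, Bst2 and Ifitm2 in ILC3 and Irf1 and Gbp2 in ILC2, differed by less than their SDs, while Ifitm2 and Ifitm1 in ILC3 and Bst2 and Isg15 in ILC2 differed by more. The Ifitm genes together made up 47.4% of the summed RPKM of the 33 genes in ILC3 and 12.2% in ILC2, and Bst2 made up 18.3% in ILC3 and 44.3% in ILC2. Ifitm1 was the fourth highest of the 33 in ILC3 and number 27 in ILC2, and Tlr3 was number 21 in ILC3 and number 33 in ILC2.

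The comparison of cell types was repeated at each time, with the spread shared over all 15 libraries. At ZT4, 9 of the 33 genes were called, 3 higher and 6 lower in ILC3, beside 7.21% of all genes tested (4.51% higher and 2.7% lower). At ZT10, 8 were called, 4 higher and 4 lower, beside 6.31% of all genes (3.77% higher and 2.54% lower). At ZT16, where ILC2 had 1 library, 5 were called, 2 higher and 3 lower, beside 3.29% of all genes (1.56% higher and 1.72% lower). At ZT23, 9 were called, 2 higher and 7 lower, beside 6.84% of all genes (3.04% higher and 3.79% lower). Ifitm1 (higher), Isg20 and Tlr7 (both lower) were called at all 4 times. These counts moved with single libraries: 4 were called at ZT4 without replicate 1 of ILC3 (455 of all 15293 genes). At ZT10, 4 were called without ILC3 replicate 1 (253 higher and 139 lower of all 15218 genes), ILC3 replicate 2 (382 called of 15239) or ILC2 replicate 2 (345 of 15224), and 5 without ILC2 replicate 1 (503 of 15305). At ZT16, 3 were called without ILC3 replicate 1 (122 of all 15221 genes) or replicate 2 (110 of 15216). At ZT23, 4 were called without ILC3 replicate 2 (528 of all 15172 genes) or without ILC2 replicate 1 (536 of 15313), and 15 by DESeq2 (2006 of 14026), beside 1049 of 15339 genes with all libraries in edgeR.

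The size of some differences varied with time by description. The log2 fold change of Tlr7 was -1.86 ± 0.33 at ZT4, -2.81 ± 0.34 at ZT10, -2.49 ± 0.38 at ZT16 and -3.40 ± 0.35 at ZT23. That of Ifitm1 was 4.16 ± 0.38, 6.63 ± 0.46, 3.0 ± 0.46 and 4.26 ± 0.37 at the same times. Oas3 was called at ZT4, ZT10 and ZT23, with -1.69 ± 0.36, -2.13 ± 0.36 and -2.51 ± 0.36. Bst2 was called at ZT4, ZT16 and ZT23, with -1.98 ± 0.43, -2.01 ± 0.48 and -2.0 ± 0.43. Irf7 was called at ZT10 and ZT23, with -1.12 ± 0.28 and -1.71 ± 0.29. Tlr3 was called at ZT4, ZT10 and ZT16 but not at ZT23, when the ILC3 libraries held 6.89 and 11.1 CPM and the ILC2 libraries 2.66 and 4.31 CPM. At ZT16 Tlr3 averaged 27.5 CPM in ILC3 and had 0 counts in the 1 ILC2 library. Taking 3 counts in that library as the limit, the ILC3 mean was at least 119-fold above it. This limit covers counting error in that library only. It does not cover the spread between ILC2 libraries, which held 0 to 4.31 CPM over all times.

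Whether these genes changed over the day within a cell type was tested over the 4 times. None of the 33 genes, and 0% of all genes tested, was called by edgeR over time in ILC3, over time in ILC2 or in the interaction of time and cell type. At an unadjusted p under 0.05, 1 of the 33 passed in ILC3, 2 in ILC2 and 3 in the interaction, beside 669, 516 and 307 of all genes. The differences of ZT16 minus ZT4 and of ZT23 minus ZT10 also gave 0 calls in either cell type; at an unadjusted p under 0.05, 1 and 2 of the 33 passed in ILC3, beside 511 and 1253 of all genes, and 3 and 5 in ILC2, beside 724 and 445. DESeq2 called Ifitm1 and Tlr3 over time in ILC2 (adjusted p = 3.31e-05 and 0.00691) and in the interaction (adjusted p = 0.0403 and 0.00228). It also called Ifitm1 in ZT23 minus ZT10 of ILC2 (adjusted p = 0.011), and none over time in ILC3. Of all genes, DESeq2 called 29 of 13681 over time in ILC2 and 2 of 17829 in the interaction. It called 5 of 17829 in ZT23 minus ZT10 of ILC2 and 17 of 10916 over time in ILC3. The ILC2 counts behind the calls of these 2 genes were low. Ifitm1 had 3 and 8 counts at ZT10, and Tlr3 had 0 in the single ZT16 library.

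The values behind the smallest p of these tests are as follows. In ILC3, Ifitm1 had 47.2 and 49.9 CPM (ZT4), 54.6 and 49.3 CPM (ZT10), 59.4 and 56.4 CPM (ZT16) and 88.1 and 42.7 CPM (ZT23), where the replicates spanned the values of all other times. In ILC2, Ifitm1 had 2.55 and 2.84 CPM (ZT4), 0.745 and 0.439 CPM (ZT10), 7.23 CPM (ZT16) and 3.86 and 3.04 CPM (ZT23) (edgeR, unadjusted p = 5.3e-05, adjusted p = 0.61). ILC2 thus held the least Ifitm1 at ZT10 and the most at ZT16, where there was 1 library. Tlr3 in ILC3 had 19.9 and 18.7 CPM (ZT4), 31.1 and 28.6 CPM (ZT10), 25.7 and 29.3 CPM (ZT16) and 6.89 and 11.1 CPM (ZT23). Tlr3 in ILC2 had 0.340 and 3.65 CPM (ZT4), 1.24 and 0.933 CPM (ZT10), 0 CPM (ZT16) and 2.66 and 4.31 CPM (ZT23). The last time held the lowest libraries of ILC3 and the highest single library of ILC2 (interaction: edgeR, unadjusted p = 0.000735, adjusted p = 1).

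Tlr7 had the smallest p over time in ILC3 (edgeR, unadjusted p = 0.0121, adjusted p = 0.965). It had 17.1 and 17.6 CPM (ZT4), 7.4 and 7.73 CPM (ZT10), 12.0 and 9.74 CPM (ZT16) and 8.48 and 8.23 CPM (ZT23) in ILC3. The ZT4 libraries stood above all others of ILC3. In ILC2, Tlr7 had 40.1 and 85.2 CPM (ZT4), 56.7 and 49.8 CPM (ZT10), 61.0 CPM (ZT16) and 104 and 73.3 CPM (ZT23), and the replicates of ZT4 lay far apart. Ifitm2 in ILC3 had 179 and 94.9 CPM (ZT4), 82.9 and 77.3 CPM (ZT10), 74.7 and 73.9 CPM (ZT16) and 91.4 and 119 CPM (ZT23). Isg15 in ILC2 had 186 and 94.4 CPM (ZT4), 81.5 and 92.0 CPM (ZT10), 54.3 CPM (ZT16) and 83.4 and 110 CPM (ZT23). For both, replicate 1 of ZT4 was the highest library of its cell type.

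**Figure D3:**
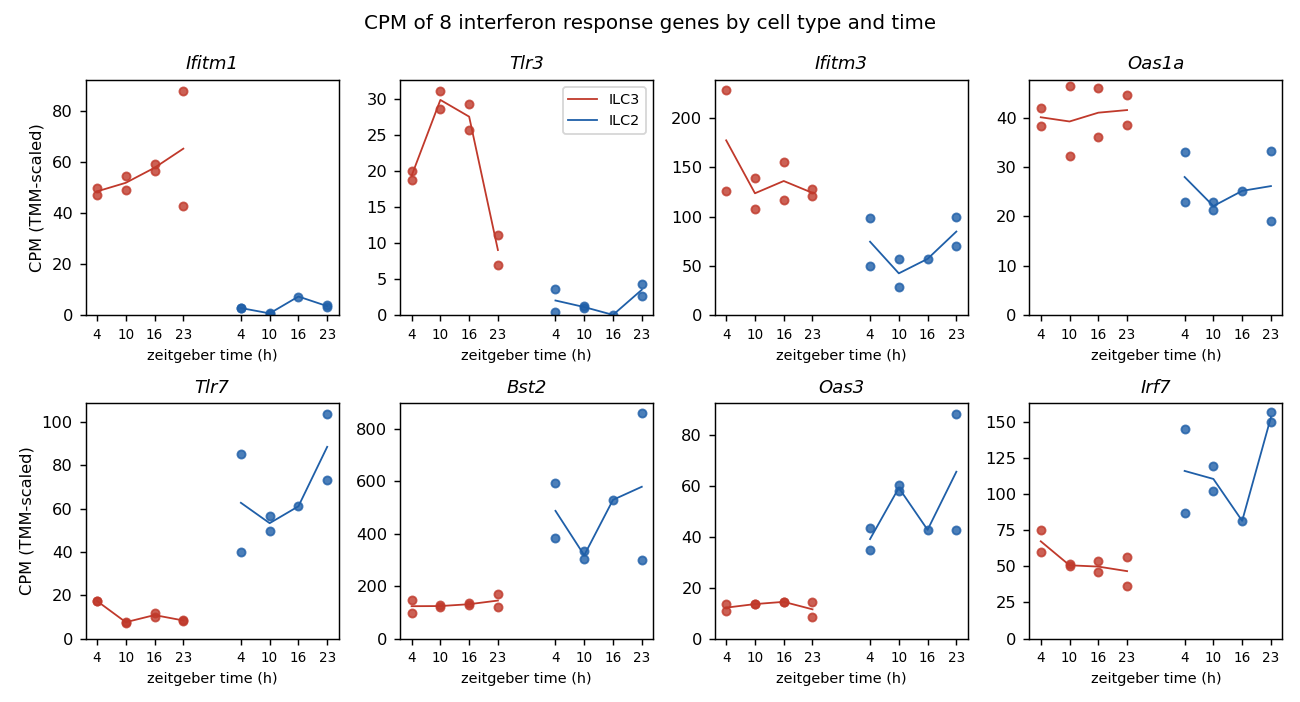
CPM (linear axis from 0) of 8 of the genes at ZT4, ZT10, ZT16 and ZT23 in ILC3 (red, left) and ILC2 (blue, right); points are libraries and lines join the means of each time. In the upper panels the ILC3 mean lies higher and in the lower panels the ILC2 mean lies higher at every time; ILC2 ZT16 is a single library.

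The highest and lowest values of the genes fell in several libraries. How far the genes vary together was not tested, and the same counts over all genes are not given here. In ILC3, replicate 2 of ZT16 held the highest value of 14 of the 33 genes, among them Ifit1, Ifit2, Ifit3, Irf9, Stat2 and Usp18, and replicate 2 of ZT23 held the lowest value of 13. In ILC2 the libraries of ZT23 shared most of the maxima: replicate 2 was the highest for 13 genes, among them Oas1a, Oas3, Ifit1, Ifit2, Ifit3, Rsad2 and Irf7, and replicate 1 for 9 others, among them Bst2, Isg20, Zbp1, Irf1 and Tlr7. Replicate 2 of ILC2 ZT23 was at the same time the lowest ILC2 library for Bst2 and Irf1. The ILC2 ZT16 library had the lowest value of 9 genes, among them Isg15, Ifit1, Ifit3 and Irf7.

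The sorted cells carried the markers of their labels. The summed level of 8 ILC2 markers, Gata3 and Il5 among them, ran from 167 to 335 CPM in ILC3 and from 1572 to 3146 CPM in ILC2, and all 8 were lower in ILC3. The summed level of 8 ILC3 markers, Il22 and Il23r among them, ran from 1082 to 2712 CPM in ILC3 and from 209 to 423 CPM in ILC2, and 7 of 8 were higher in ILC3. Markers of other cells differed with the cell type as well. For plasmacytoid dendritic cells, which are known for high Tlr7, Irf7 and Bst2, 10 of 11 markers were lower in ILC3, and their sum ran from 244 to 391 CPM in ILC3 and from 1846 to 4386 CPM in ILC2. The defining marker Siglech averaged 2.38 ± 1.22 CPM in ILC3 and 298 ± 102 CPM in ILC2. For plasma cells, which carry Bst2 in human, all 8 markers were lower in ILC3, and their sum ran from 757 to 4653 CPM in ILC3 and from 19774 to 196550 CPM in ILC2. Jchain alone made up 0.0275% to 0.43% of the counts in ILC3 and 1.85% to 15.7% in ILC2. For macrophages, 3 of 11 markers were higher in ILC3 and none lower, with sums from 992 to 2893 CPM in ILC3 and from 281 to 2520 CPM in ILC2. Mast cell and eosinophil markers had 8 of 10 higher and 1 lower in ILC3, with sums from 1489 to 3687 CPM in ILC3 and from 271 to 837 CPM in ILC2. Markers of natural killer cells and ILC1 had 6 of 9 higher and 1 lower in ILC3, with sums from 731 to 6115 CPM in ILC3 and from 317 to 901 CPM in ILC2. T cell markers had 5 of 10 higher and 3 lower in ILC3 (695 to 3758 CPM in ILC3 and 852 to 1737 CPM in ILC2), and epithelial markers 1 of 10 higher (191 to 4920.45 CPM in ILC3 and 81.9 to 741 CPM in ILC2). Of all these markers, 4 were at 0 in every ILC2 library, Klra8, Klra4, Epx and Ear1, and none was at 0 in every ILC3 library. The part of these cells in the differences above was not tested beyond the values that follow.

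Levels were compared with these markers across libraries in 20 relations on log2(CPM + 1), each by a two-sided exact permutation test and adjusted over the 20. In the 7 ILC2 libraries, which are 1 batch, Bst2 went with Jchain (Pearson r = 0.908, exact permutation p = 0.00238, adjusted 0.0278; Spearman rho = 0.929, exact p = 0.00675, adjusted 0.045), with r = 0.902 without the 2 libraries farthest from the Jchain median. Isg20 also went with Jchain (r = 0.869, exact p = 0.0123, adjusted 0.0694; rho = 0.929, exact p = 0.00675, adjusted 0.045; r = 0.802 without the 2 farthest). Oas3 had the opposite sign (r = -0.874, exact p = 0.0139, adjusted 0.0694; rho = -0.857, exact p = 0.0238, adjusted 0.119; r = -0.903 without the 2 farthest) and did not pass the adjustment. Tlr7 went with Siglech (r = 0.834, exact p = 0.00278, adjusted 0.0278, and rho = 0.964, exact p = 0.00278, adjusted 0.045, with r = 0.876 without the 2 farthest). Zbp1 had r = 0.773 with Jchain (exact permutation p = 0.0329, adjusted 0.110) and 0.649 with Siglech (exact permutation p = 0.0226, adjusted 0.0905), and passed with neither. Isg15 had r = -0.739 with Siglech (exact permutation p = 0.165, adjusted 0.367), and 0.182 without the 2 farthest. No other ILC2 relation passed by either coefficient. Neither Bst2 nor Irf7 passed with Siglech, where r was 0.415 for Bst2 (exact p = 0.318, adjusted 0.579; rho = 0.536, exact p = 0.236, adjusted 0.471; r = 0.748 without the 2 farthest) and -0.319 for Irf7 (exact p = 0.603, adjusted 0.752; rho = 0.107, exact p = 0.84, adjusted 0.884; r = -0.330 without the 2 farthest). In the 8 ILC3 libraries, r with Csf1r, a macrophage marker, was -0.292 for Ifitm1, 0.508 for Ifitm2, 0.626 for Ifitm3 and 0.192 for Tlr3. No relation passed (lowest adjusted exact permutation p = 0.328). Without the 2 libraries farthest from the Csf1r median, r was 0.003, -0.513, 0.167 and 0.384 in the same order. Markers of the other cell types were not set against these 4 genes.

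**Figure D4:**
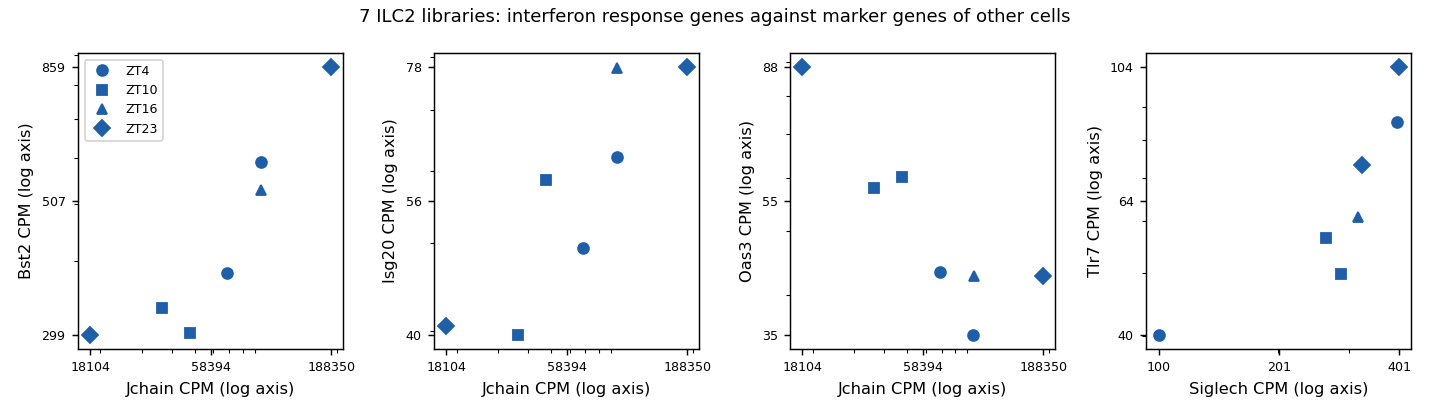
Each panel plots 1 gene (y axis, CPM, log scale) against a marker of another cell type (x axis, CPM, log scale) in the 7 ILC2 libraries, with the shape giving the time. Bst2 and Isg20 rise with Jchain, Oas3 falls with it and Tlr7 rises with Siglech, with rho of 0.929, 0.929, -0.857 and 0.964.

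The cell type comparison was also made without the 3 ILC2 libraries of highest Jchain share (ZT4 replicate 2, ZT16 and ZT23 replicate 1). The ILC2 libraries that were kept still held 1.85% to 6.17% Jchain, against 0.0275% to 0.43% in ILC3. Their Siglech levels ran from 100 to 324 CPM, against 0.756 to 4.24 CPM in ILC3. The fit thus did not remove these markers from ILC2, and the part of these cells was not tested by it. Leaving out these 3 libraries was a choice made after the values were seen. With ZT16 left out by this choice, 16 of the 33 genes were called over the other times, 4 higher and 12 lower in ILC3, beside 3250 of all 15164 genes tested, 1962 higher and 1288 lower. Bst2 was at -1.34 ± 0.16 and Isg20 at -1.64 ± 0.22, Tlr7 at -2.38 ± 0.15 and Oas3 at -2.30 ± 0.18 on the log2 scale, and all of these were called. The calls of Oas1a (0.48; adjusted p = 0.0695), Ifih1 (0.41; adjusted p = 0.163), Xaf1 (-0.79; adjusted p = 0.0858) and Stat2 (-0.50; adjusted p = 0.117) were lost in that edgeR fit.

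The rest of the interferon pathway was described by 5 lists of 94 further genes, of which 85 were tested, 6 were called higher and 30 lower in ILC3. The counts of each list stand beside 15.1% higher and 12% lower over all genes tested. Of 9 genes that encode interferons, only Ifng, the type II interferon, had enough counts to be tested, and it was lower in ILC3 (4.37 ± 2.94 CPM in ILC3 and 33.9 ± 22.5 CPM in ILC2; log2 fold change -2.76 ± 0.45; edgeR, adjusted p = 0.000649). The other 8, among them Ifnb1 and Ifnl2, held 0 to 3 counts over all ILC3 libraries and 0 to 11 over all ILC2 libraries. Among 13 receptor and JAK-STAT genes, 3 were higher and 4 lower in ILC3. The type I receptor chains were both lower, Ifnar1 at 96.0 ± 26.7 CPM in ILC3 and 201 ± 45.9 CPM in ILC2 (log2 fold change -1.02 ± 0.15) and Ifnar2 at 54.9 ± 10.2 CPM in ILC3 and 137 ± 27.2 CPM in ILC2 (-1.30 ± 0.15). Il10rb, a chain of the type III and IL-22 receptors, was lower too (-0.84 ± 0.11), and Socs1, the inhibitor of the receptor kinases, was higher, at 138 ± 49.5 CPM in ILC3 and 56.0 ± 18.4 CPM in ILC2 (1.32 ± 0.19).

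Among 18 further sensors and adaptors, 2 were higher and 6 lower in ILC3. Irf5 was higher (log2 fold change 0.92 ± 0.14). Tlr9, the receptor for DNA, was lower (-0.96 ± 0.20), as were Ddx58, which encodes RIG-I (-0.78 ± 0.15), and Adar, the RNA-editing enzyme (-0.67 ± 0.13). Among 33 tested of 34 other interferon-stimulated genes, none was higher and 9 were lower. Pml, the scaffold of nuclear bodies, had the smallest p of them, at 48.1 ± 6.94 CPM in ILC3 and 149 ± 45.7 CPM in ILC2 (-1.65 ± 0.17). Ifi44 (-2.19 ± 0.40), Ifi27l2a (-1.09 ± 0.22) and Ly6e (-0.74 ± 0.17) were lower as well. Among 20 genes of the guanylate-binding, immunity-related GTPase and antigen-processing families and the chemokines they are induced with, 1 was higher and 10 lower. The chemokines for CXCR3, induced by interferon, differed in direction: Cxcl9 was higher, at 46.6 ± 19.0 CPM in ILC3 and 10.95 ± 3.90 CPM in ILC2 (2.13 ± 0.30), and Cxcl10 lower, at 55.8 ± 9.16 CPM in ILC3 and 240 ± 135 CPM in ILC2 (-2.04 ± 0.21). Gbp6 (-1.20 ± 0.24) and Igtp (-0.75 ± 0.19) were lower.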

How the data were processed

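PolyA RNA of sorted ILC3 and ILC2 was sequenced in 15 libraries made from 100 ng of total RNA, per the labels' protocols. The authors deposited whole-number read counts per Entrez gene, with gene lengths and no normalization. Reads were counted with featureCounts on mm10, per the submitters' processing notes. Neither an aligner, nor a strand setting, nor the handling of multiply matching reads is given in the sources used here, so antisense and near-identical genes cannot be told apart. Symbols and positions came from RefSeq tables of GRCm38.p6, which named 22718 of 22797 identifiers, and groups from the labels.

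Counts were filtered with filterByExpr (minimum count 10), scaled by TMM and fitted with edgeR 4.0.16 in R 4.3.3 as 8 group means over 15 libraries, leaving 7 residual degrees of freedom, with p-values adjusted by Benjamini-Hochberg over 15339 genes. All groups share 1 estimate of spread, since ILC2 ZT16 has 1 library. Replicates differed beyond sampling noise (chi-square per degree of freedom from 22.0 to 229). Correlations used scipy 1.17.1. The code was tested on simulated data. Alternatives were DESeq2 1.42.0, library-size scaling, no low-count filter, a mean of at least 1 CPM, the libraries of 1 cell type only for tests of time, a replicate block (without the ILC2 ZT16 library, whose title has no number) and each library left out. The floor of 3 counts covers counting error only.

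Values per library are given for genes called between cell types at a log2 fold change of 1 or more in size and for the 3 with the smallest p in each test of time; for other pathway lists, up to 4 called genes with the smallest p are named. Any further gene was named with its values known. The genes and lists were chosen with earlier results of these data known. Some items are not reported here by name, though counts and sums over lists hold them.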

Additional observations from a re-analysis of the deposited data

Results flagged for a closer look

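In all, 9 of 66 sets of 1 gene in 1 cell type held a library that stood apart from the others, by the gap to its nearest neighbour over the whole range (critical value 0.526 for 8 libraries and 0.568 for 7). Chance gives about 1 in 20 for normally distributed values. The CPM were not transformed and the sets share the same libraries, so 9 of 66 cannot be judged against that share. In ILC3, replicate 1 of ZT4 was the highest library for Ifitm2 at 179 CPM (nearest 119), for Ifitm3 at 229 CPM (nearest 155) and for Isg15 at 61.8 CPM (nearest 39.6), and the lowest for Xaf1 at 3.72 CPM (nearest 6.76). Replicate 1 of ILC3 ZT23 was the highest for Ifitm1 at 88.1 CPM (nearest 59.4) and for Rtp4 at 17.9 CPM (nearest 11.6). In ILC2, replicate 2 of ZT23 was the highest for Ifit1 at 25.3 CPM (nearest 12.2) and for Ifit3 at 11.8 CPM (nearest 5.47). Replicate 1 of ILC2 ZT4 was the highest for Isg15 at 186 CPM (nearest 110). In each cell type, replicate 1 of ZT4 held the highest sum of macrophage markers, 2893 CPM in ILC3 and 2520 CPM in ILC2. It was also the highest or lowest library for several other marker sums. In ILC3 it had the lowest total, 5903163 counts. Whether any of this bears on the flagged values was not tested.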

How the results depend on the processing

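Between cell types, 20 genes were called, against 21 by DESeq2, 16 with library-size scaling, 20 without a filter and 21 with a mean of at least 1 CPM. The replicate block, which also leaves out the unnumbered ILC2 ZT16 library, gave 18 (5 higher, 13 lower). The count also moved when 1 library was left out. The calls over all genes tested moved as well, in the fits without 1 library too. They were 4157 of 15339, against 4816 of 15063 by DESeq2 and 4296 of 15339 with library-size scaling. Without a filter they were 4173 of 17829, with a mean of at least 1 CPM 3832 of 12694, and with the replicate block 3525 of 14597. Library-size scaling moved the median of all genes to 0.26. Of the 20 genes, 14 kept the call under all 21 alternatives and 0 changed direction. Deviations by replicate number went together in some pairs of groups only (r from -0.159 to 0.447, 6 of 21 pairs over 0.1). Whether the replicate numbers pair the libraries is not settled by this. The fit with the block lost Stat2 and Ifih1 (-0.53 and 0.60), as did the fit without ILC2 ZT16 and no block. The latter fit also gave 18 (5 higher, 13 lower). Counts at single times moved: without 1 library, 4 to 10 at ZT4, 4 to 9 at ZT10, 3 to 6 at ZT16 and 4 to 10 at ZT23; at ZT23, 15 by DESeq2 and 5 without the Jchain-high libraries. By DESeq2, 2 genes were called over time in ILC2, 2 in the interaction and 1 in ZT23 minus ZT10 of ILC2. Over all genes these were 29 of 13681, 2 of 17829 and 5 of 17829. The causes were not tested.

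Of the 13 genes not called, 9 changed sign under some alternative. With the block and without ILC2 ZT16, Oas2 was at -0.65, Oasl2 at -0.067 and Ifit2 at -0.22, and without ILC2 ZT16 alone at -0.76, -0.067 and -0.22. Without the Jchain-high libraries, Oas2 was at -1.001, Oasl2 at -0.25, Ifit2 at -0.49, Dhx58 at -0.21 and Mx2 at 2.67. Mx2 was at 0.014 by DESeq2, 0.16 with library-size scaling and 0.011 without a filter; library-size scaling put Parp14 at 0.14, Gbp3 at 0.067 and Eif2ak2 at 0.064. Without 1 library, Oas2 ran from -0.76 to 0.69, Oasl2 from -0.10 to 0.21, Ifit2 from -0.22 to 0.17, Mx2 from -0.24 to 1.74, Rtp4 from -0.40 to 0.10, Parp14 from -0.18 to 0.094, Gbp3 from -0.20 to 0.015 and Eif2ak2 from -0.24 to 0.013. Oasl1 was called under 5 alternatives. Depth limits the low genes: over the 7 ILC2 libraries Mx2 had 99 counts, Tlr3 169, Oas2 181 and Ifitm1 242.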
